A study of Mus musculus with 10 samples.

Results

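The genes described here are 10 members of the NF-kB pathway, picked by symbol out of the 55385 mouse genes in the deposited table. They are the subunit genes Nfkb1, Nfkb2, Rela and Relb, the inhibitors Nfkbia, Nfkbie, Nfkbiz, Bcl3 and Tnfaip3, and the adhesion gene Icam1, a target of the pathway. Each symbol matched 1 Ensembl identifier in GENCODE M21, and all 10 passed the filter on low values, Bcl3 through its treated libraries alone. Their RNA was measured by bulk sequencing of neutrophils from squamous cell carcinomas (SCC) grafted on CatchupIVM-red mice. In this reporter line neutrophils are marked by the red protein Tomato, driven from the neutrophil gene Ly6g, and the study sorted Tomato+ cells. The grafts were either parental Sox2low cells, here called control, or Sox2Hi SCC cells, named for the stem cell factor Sox2. The sample descriptions add C57 in all groups, GFP in the control and Sox2 in the Sox2Hi libraries, without saying what C57 and GFP refer to. Tumour-bearing mice were left naive or were treated with anti-PDL1, which blocks an immune checkpoint, together with an agonist of the receptor CD40. Doses, times, animal ages and whether a library is 1 mouse or a pool are not given in the sources used here. Each graft gave 3 naive and 2 treated libraries, 10 in all, and the study asked whether Sox2 in the tumour alters the neutrophils' response. Nothing in the labels says whether replicates came from separate animals. In each group 1 library had 4 to 8 reads of the Y-linked gene Ddx3y and the others 1007 to 6618, so no group is a single animal, but which of the remaining naive libraries are separate animals is not known. P-values measure the spread between these libraries.

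NF-kB proteins are transcription factors that pair up and, in resting cells, are held in the cytoplasm by IkappaB inhibitors. Signals from receptors such as CD40, the interleukin and tumour necrosis factor receptors and Toll-like receptors activate kinases that mark the inhibitor for destruction, which frees the dimer to enter the nucleus. Among the genes it then switches on are those of its own inhibitors and some of its own subunits, so the RNA of these genes is a common readout of recent pathway activity. In neutrophils the pathway drives cytokine and chemokine genes and prolongs survival.

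NF-kB dimers bind a short DNA motif, and the stretches below show it in the promoters of the members where its stringent form was found. The sequences are from RefSeq (GRCm38.p6), which held promoter windows for 7 of the 10 members. Nfkb1, Relb and Nfkbiz had none. The window searched was the 250 bases before each annotated start. The stringent motif was GGGNN followed directly by TTTCC or TTCCC, on either strand, and the 2 forms share their first bases. Capitals mark every match in the stretches shown.

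Nfkbia, chr12:55492648-55492897, minus strand: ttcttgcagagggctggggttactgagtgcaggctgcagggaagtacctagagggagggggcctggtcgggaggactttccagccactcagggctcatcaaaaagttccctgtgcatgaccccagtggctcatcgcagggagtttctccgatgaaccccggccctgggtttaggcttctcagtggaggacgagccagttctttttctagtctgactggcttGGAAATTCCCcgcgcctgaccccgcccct
Tnfaip3, chr10:19015411-19015547, minus strand: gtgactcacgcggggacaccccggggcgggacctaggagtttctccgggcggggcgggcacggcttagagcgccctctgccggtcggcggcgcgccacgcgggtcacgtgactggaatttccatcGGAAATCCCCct
Nfkb2, first start, chr19:46304693-46304712, plus strand: gtcacGGGAATTCCCcccct
Nfkb2, first start, chr19:46304721-46304736, plus strand: cgaaaGGGGCTTTCCC
Nfkb2, a later start, chr19:46305700-46305719, plus strand: ttttcGGGACTTTCCtaagc

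The Nfkbia stretch is the whole window, with the match between 29 and 20 bases before the start. The Tnfaip3 stretch is the run around the match that lies outside annotated untranslated regions, which cover 110 bases of its window. Its match ends 3 bases before the start of that window's transcript. This start lies inside the gene, whose annotated span begins at chr10:19015657 on the minus strand. The Nfkb2 windows lie mostly in an annotated untranslated region of another transcript, so only the bases around the matches are shown, and the second stretch holds a pair of overlapping matches. In all, 3 of the 7 members with a window held the stringent motif, against 3.25% of 27025 genes. The looser form, GGGNN followed by NNNCC, was in all 7, but also in 48.7% of all genes, so it sets the members little apart. A match is a run of letters in this window and not a measured binding site.

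Total counts ran from 13815734 to 22986193 per library. Expression is given as CPM (counts scaled to a common library total), corrected by TMM factors. These came from the 11274 genes whose mean over libraries reached 5 CPM, which is called the expressed-gene scaling. The factors ran from 0.743 to 1.22, and were lowest in the 2 control treated libraries, at 0.744 and 0.743. Reads also fell on 1464 olfactory and vomeronasal receptor genes that neutrophils should not express. A background at that rate would make up 5.02% to 8.37% of the counts in control naive libraries, 1.58% to 1.74% in control treated, 3.63% to 3.92% in Sox2Hi naive and 4.04% to 4.96% in Sox2Hi treated. Over the 10 libraries pooled, it would account for 0.0274% of the reads of Nfkbia, 0.487% of Nfkbiz, 0.959% of Tnfaip3, 1.05% of Icam1, 1.8% of Nfkbie and 4.85% of Nfkb1. It would account for 8.26% of the reads of Rela, 11.2% of Nfkb2, 12.5% of Relb and 15% of Bcl3, whose fold changes are the ones it can touch most. These pooled shares do not show how far the share differs between groups, and the background was highest in control naive and lowest in control treated libraries. Of the neutrophil markers S100a8 was abundant, at 914 to 1910 CPM in naive and 3582 to 10217 CPM in treated libraries, while Ly6g itself stood at 1.74 to 3.50 CPM in naive and 5.80 to 17.8 CPM in treated libraries. The 20 neutrophil markers together took 1.49% to 2.34% of control naive counts, 3.06% to 3.22% of control treated, 1.53% to 2.06% of Sox2Hi naive and 1.94% to 2.30% of Sox2Hi treated. Much of this sum is Il1r2, at 8455 to 19619 CPM. Marker by marker, 15 of the 17 tested rose in control grafts (median log2 fold change 2.31) and 11 of 17 in Sox2Hi grafts (median 1.44), more than the medians of 0.88 and 0.64 given below for the NF-kB genes. The 16 macrophage and dendritic cell markers took 0.140% to 0.228%, 0.389% to 0.434%, 0.209% to 0.287% and 0.252% to 0.423% in the same order. That sum moved mainly with Lyz2, at 419 to 857 CPM in control naive and 4149 to 4183 CPM in control treated libraries. Of the 13 of these markers tested, 3 rose and 1, Cd209a, fell in control grafts (median 0.30), and 2 rose and 1 fell in Sox2Hi grafts (median 0.13). The 10 keratinocyte markers took 0.119% to 0.339%, 0.0550% to 0.117%, 0.161% to 0.210% and 0.0827% to 0.157%, and the 8 fibroblast and endothelial markers 0.0298% to 0.0821%, 0.00738% to 0.00927%, 0.0512% to 0.0759% and 0.0103% to 0.0324%. The 10 T and NK cell markers took 0.00566% to 0.00974%, 0.00949% to 0.0326%, 0.00438% to 0.0148% and 0.0135% to 0.0262%. The 6 B and plasma cell markers took 0.00678% to 0.0124%, 0.00289% to 0.00921%, 0.0168% to 0.0809% and 0.00228% to 0.0118%. The highest of these values is that of Sox2Hi naive replicate 2, and the other Sox2Hi naive libraries were at 0.0168% and 0.0206%. Of the 4 B and plasma cell markers tested, 0 were called in either graft. The 6 mast cell markers summed to at most 0.0242% in any library. The background differed with treatment most in control grafts, and the marker sums differed with treatment in one or both grafts. Their part in the results was not tested. In bulk RNA, fewer cells of a type and less RNA per cell cannot be told apart.

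To set genes side by side, levels were also taken per kilobase of exon, with the exons of all annotated transcripts of a gene merged. By this measure Nfkbia stood far above the rest, at 851 ± 89.1 CPM per kb in control naive libraries (SD, n = 3). Nfkbiz followed at 55.3 ± 12.2 CPM per kb, then Tnfaip3 at 21.2 ± 2.85, Icam1 at 19.5 ± 4.04 and Nfkbie at 13.0 ± 3.15 CPM per kb in the same libraries. The subunit genes were lower still, with Nfkb1 at 6.25 ± 0.883, Rela at 2.90 ± 0.124, Nfkb2 at 2.35 ± 0.309 and Relb at 2.22 ± 0.360 CPM per kb. Bcl3 was the lowest at 1.64 ± 0.400 CPM per kb. In this order Tnfaip3 and Icam1 differed by less than their spread, as did Nfkb2 and Relb. Among these 10 genes, each inhibitor apart from Bcl3 thus stood above the 4 subunit genes by this measure. The merged length was 12061 bases for Nfkb1 and 3045 for Nfkbie. In CPM the order of these genes was the reverse in control naive libraries. Nfkb1 stood at 69.4, 87.6 and 68.9 CPM and Nfkbie at 38.2, 49.8 and 30.7 CPM. Their order per kilobase therefore depends on the length used. The further subunit gene Rel stood at 14.4 ± 2.80 CPM per kb, level with Nfkbie within the spread.

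**Figure D1:**
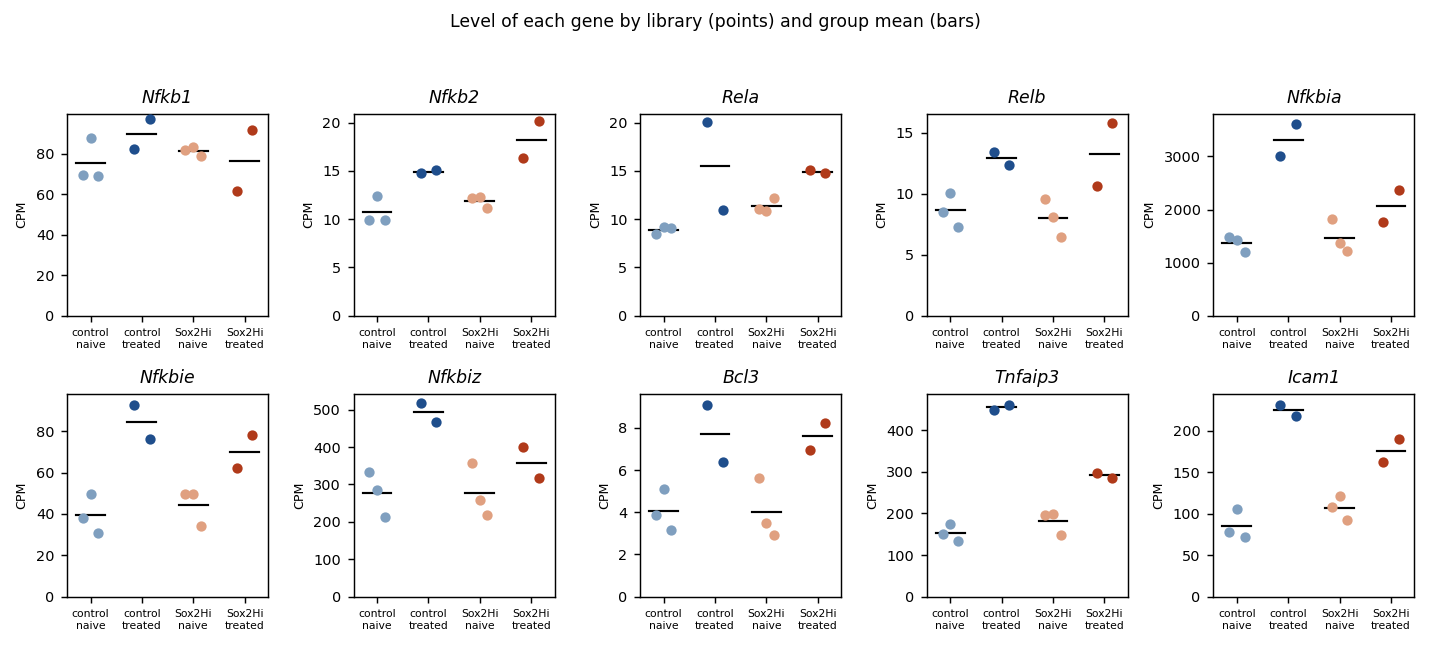
Level of each of the 10 genes in each library, in CPM under the expressed-gene scaling (y axis, from 0), by group (x axis). Points are libraries and bars are group means. Treated control libraries lie above all naive control libraries for every gene except Nfkb1.

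Among the subunit genes, Rela and Nfkb2 rose with treatment in control grafts, while Nfkb1 and Relb did not pass the test. Rela (chr19:5637483-5648130, plus strand, ENSMUSG00000024927) encodes the main activating subunit of the canonical pathway. It stood at 8.48, 9.18 and 9.09 CPM in control naive, 20.014 and 10.959 CPM in control treated, 11.017, 10.807 and 12.239 CPM in Sox2Hi naive and 15.044 and 14.801 CPM in Sox2Hi treated libraries. Treated libraries lay above naive ones in both grafts, but the 2 control treated libraries were far apart. In control grafts Rela rose by a log2 fold change of 0.79 (SE 0.229, adjusted p = 0.0127, edgeR quasi-likelihood test). Without control treated replicate 1 the value was 0.412 (adjusted p = 0.0943), so the call rests on that library. In Sox2Hi grafts the change was 0.39 (SE 0.228, adjusted p = 0.216), with a 95% interval from -0.05 to 0.84.

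Nfkb2 (chr19:46304320-46312385, plus strand, ENSMUSG00000025225) encodes the precursor of the subunit that acts in the noncanonical pathway, a slower branch that CD40 can engage. Its values were 9.93, 12.4 and 9.96 CPM in control naive, 14.7 and 15.1 CPM in control treated, 12.2, 12.3 and 11.1 CPM in Sox2Hi naive and 16.3 and 20.1 CPM in Sox2Hi treated libraries. Treated libraries lay above naive ones in both grafts, and Sox2Hi treated above control treated. It passed the test in both grafts, with a log2 fold change of 0.47 in control (SE 0.176, adjusted p = 0.0384) and of 0.62 in Sox2Hi (SE 0.174, adjusted p = 0.0307). The control call was lost without control naive replicate 1 (0.42, adjusted p = 0.119), control naive replicate 3 (0.421, adjusted p = 0.0965) or control treated replicate 2 (0.6, adjusted p = 0.0507). The Sox2Hi call was lost without Sox2Hi naive replicate 1, 2 or 3 (adjusted p = 0.0592, 0.0688 and 0.112) or Sox2Hi treated replicate 2 (0.399, adjusted p = 0.305). The direction in control grafts turned when libraries were scaled on the genes of at least 100 CPM (-0.08) or by their totals (-0.04).

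Relb (chr7:19606217-19629438, minus strand, ENSMUSG00000002983), the usual partner of the Nfkb2 product, stood at 8.54, 10.1 and 7.29 CPM in control naive, 13.4 and 12.4 CPM in control treated, 9.59, 8.11 and 6.42 CPM in Sox2Hi naive and 10.6 and 15.8 CPM in Sox2Hi treated libraries. Treated libraries were again above naive ones in both grafts. The log2 differences of 0.58 in control (SE 0.238, adjusted p = 0.0561) and 0.72 in Sox2Hi (SE 0.237, adjusted p = 0.0521) missed the threshold. The control value passed it without control naive replicate 2 (0.743, adjusted p = 0.0297), and the Sox2Hi value without Sox2Hi naive replicate 1 (0.865, adjusted p = 0.0464) or Sox2Hi treated replicate 1 (0.976, adjusted p = 0.0449). Nfkb1 (chr3:135584655-135691547, minus strand, ENSMUSG00000028163) encodes the precursor of a DNA-binding subunit that has no activation domain of its own. Its values were 69.4, 87.6 and 68.9 CPM in control naive, 82.4 and 96.9 CPM in control treated, 81.6, 83.3 and 78.9 CPM in Sox2Hi naive and 61.5 and 91.4 CPM in Sox2Hi treated libraries. The groups overlapped in both grafts. The log2 differences were 0.25 in control (SE 0.188, adjusted p = 0.272, 95% interval from -0.12 to 0.62) and -0.09 in Sox2Hi (SE 0.190, adjusted p = 0.752, 95% interval from -0.46 to 0.28). A rise of the size seen for Tnfaip3 in control grafts lies outside both intervals.

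All 5 inhibitors rose with treatment in control grafts, against 24.1% of all genes, and 1 of them, Tnfaip3, in Sox2Hi grafts, against 15%. Such calls were more frequent among abundant genes. Of the 1520 tested genes of at least 100 CPM, 832 were called higher in control and 367 in Sox2Hi grafts. Nfkbia, Nfkbiz and Tnfaip3 are in that set. Bcl3, 1 of the 5, passed the filter on low values only through the treated libraries, which favoured its call. Nfkbia (chr12:55489410-55492647, minus strand, ENSMUSG00000021025) encodes IkappaB-alpha, the inhibitor that is destroyed first on activation and then made again. It stood at 1479, 1423 and 1208 CPM in control naive libraries and at 3009 and 3615 CPM in control treated ones. In Sox2Hi grafts it stood at 1825, 1368 and 1215 CPM in naive and at 1760 and 2374 CPM in treated libraries. Both control treated libraries thus lay above all others, while the Sox2Hi groups overlapped. The log2 fold change was 1.27 in control grafts (2.42-fold, SE 0.218, adjusted p = 0.000907). It was 0.49 in Sox2Hi grafts (SE 0.219, adjusted p = 0.120), which did not pass.

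Tnfaip3 (chr10:19000910-19015657, minus strand, ENSMUSG00000019850) encodes an enzyme that edits ubiquitin chains on signalling proteins and so turns the pathway off upstream of the kinases. It stood at 152, 174 and 133 CPM in control naive and 450 and 461 CPM in control treated libraries. In Sox2Hi grafts it stood at 197, 199 and 148 CPM in naive and 298 and 285 CPM in treated libraries. No groups of naive and treated libraries overlapped, and the Sox2Hi treated libraries lay between naive and control treated. It had the largest change of the 10 genes in control grafts, a log2 fold change of 1.57 (2.98-fold, SE 0.169, adjusted p = 0.000121). In Sox2Hi grafts it rose by 0.69 (1.61-fold, SE 0.169, adjusted p = 0.0199). That call was lost without Sox2Hi naive replicate 3 (0.561, adjusted p = 0.0788), Sox2Hi treated replicate 1 (0.657, adjusted p = 0.0777) or Sox2Hi treated replicate 2 (0.657, adjusted p = 0.156).

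Nfkbie (chr17:45555703-45563169, plus strand, ENSMUSG00000023947), which encodes IkappaB-epsilon, stood at 38.2, 49.8 and 30.7 CPM in control naive, 92.9 and 76.4 CPM in control treated, 49.5, 49.8 and 33.9 CPM in Sox2Hi naive and 62.2 and 78.0 CPM in Sox2Hi treated libraries. Treated libraries exceeded naive ones in both grafts. It rose by a log2 fold change of 1.10 in control grafts (2.14-fold, SE 0.233, adjusted p = 0.0026), and the value of 0.66 in Sox2Hi grafts (SE 0.233, adjusted p = 0.0648) did not pass. Nfkbiz (chr16:55811375-55838899, minus strand, ENSMUSG00000035356) and Bcl3 (chr7:19808462-19822770, minus strand, ENSMUSG00000053175) encode atypical IkappaB proteins that act in the nucleus, where they bind subunits that lack an activation domain and raise or lower the expression of chosen targets. Nfkbiz stood at 334, 286 and 212 CPM in control naive, 517 and 469 CPM in control treated, 358, 259 and 218 CPM in Sox2Hi naive and 400 and 318 CPM in Sox2Hi treated libraries. Its groups were apart in control grafts and overlapped in Sox2Hi grafts. The log2 fold change was 0.83 in control (SE 0.236, adjusted p = 0.0119), and the Sox2Hi value of 0.37 (SE 0.238, adjusted p = 0.264) did not pass.

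Bcl3 was the scarcest of the 10, with group means of 65.0 to 116.5 counts. Its naive group means of 4.048 and 4.005 CPM lay under the filter of 5 CPM, which it passed only through the treated groups, at 7.74 and 7.60 CPM, and a gene that enters this way has to be higher there. Its values were 3.88, 5.11 and 3.16 CPM in control naive, 9.10 and 6.37 CPM in control treated, 5.61, 3.47 and 2.93 CPM in Sox2Hi naive and 6.95 and 8.25 CPM in Sox2Hi treated libraries. Treated exceeded naive in both grafts, by nearly the same amount. The log2 fold change was 0.94 in control (SE 0.305, adjusted p = 0.022) and 0.92 in Sox2Hi grafts (SE 0.302, adjusted p = 0.0515), where it missed the threshold. With no filter the control value was 0.937 (adjusted p = 0.0196). The control call was lost without control naive replicate 1 (0.909, adjusted p = 0.0583), control naive replicate 3 (0.783, adjusted p = 0.0701) or control treated replicate 1 (0.775, adjusted p = 0.111). The Sox2Hi value passed without Sox2Hi naive replicate 1 (1.245, adjusted p = 0.0229).

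Icam1 (chr9:21015985-21028817, plus strand, ENSMUSG00000037405) encodes a surface protein that binds leukocyte integrins and is a classic target of NF-kB. It stood at 78.3, 105 and 71.8 CPM in control naive and 231 and 218 CPM in control treated libraries. In Sox2Hi grafts it stood at 108, 121 and 92.0 CPM in naive and 162 and 190 CPM in treated libraries. No naive and treated groups overlapped. It rose by a log2 fold change of 1.40 in control (2.64-fold, SE 0.187, adjusted p = 0.000301) and of 0.72 in Sox2Hi grafts (1.64-fold, SE 0.187, adjusted p = 0.0243). The Sox2Hi call was lost without Sox2Hi naive replicate 3 (0.617, adjusted p = 0.096) or Sox2Hi treated replicate 2 (0.536, adjusted p = 0.235).

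Counted over the 10 genes, 8 were called higher with treatment in control grafts, against 24.1% of all genes tested (2720 of 11274). Without Bcl3, which the filter favoured, 7 of 9 were called. All but Nfkb1 had treated libraries above every naive one, 9 of 10 against 29.6% of genes tested, and 8 of 9 without Bcl3. In Sox2Hi grafts 3 were called higher, Nfkb2, Tnfaip3 and Icam1, against 15% of genes tested, and 7 of 10 had separate groups, against 37%, or 6 of 9 without Bcl3. The median log2 fold change of the 10 was 0.88 in control grafts, beside -0.18 over all genes tested and 0.54 over the 1520 tested genes of at least 100 CPM. In Sox2Hi grafts it was 0.64, beside 0.09 and 0.15. Of those 1520 genes, 832 were called higher in control and 367 in Sox2Hi grafts. Nfkbia, Nfkbiz, Tnfaip3 and Icam1 are among them by abundance. The count in Sox2Hi grafts fell to 0 without Sox2Hi naive replicate 3, where 4.81% of all genes were called higher. Without Sox2Hi treated replicate 2, which leaves 1 treated library, Nfkb2 and Icam1 had their lowest values with a library left out, 0.399 and 0.536.

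The size of every change depended on the scaling, since a change of a library's factor shifts all its genes together. Over all genes, the split of calls in control grafts was 2720 higher to 3736 lower, and became 5545 to 4533 with factors from all 29648 genes that pass a low count filter (the all-gene scaling). It became 1164 to 6589 with factors from the genes of at least 100 CPM. In control grafts the median of the 10 genes came to 1.44 with the all-gene factors, where 10 were called, against 18.7% of all genes. It came to 0.34 with factors from genes of at least 100 CPM, where 3 were called, against 10.3%. The 3 were Nfkbia, Tnfaip3 and Icam1. In Sox2Hi grafts the split of all calls was 1692 to 741. It was 1088 to 1006 with factors from the genes of at least 100 CPM and turned to 670 higher against 2364 lower with library totals, where 0 of the 10 were called. It was 531 to 539 under the all-gene scaling, where the median of the 10 genes was 0.37 and 0 of them were called by edgeR (3 at an unadjusted p under 0.05). In Sox2Hi grafts DESeq2 called 2 of the 10, against 12.3% of all genes called higher, and limma-voom called 6, against 22%.

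**Figure D2:**
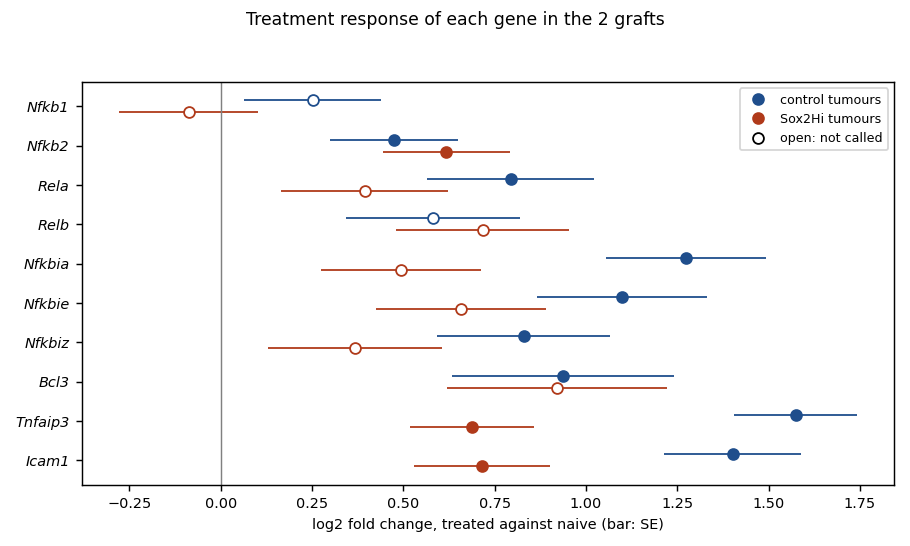
Log2 fold change of each gene between treated and naive libraries (x axis) in control and Sox2Hi grafts. Bars show 1 SE, and filled points passed an adjusted p of 0.05. Tnfaip3, Icam1 and Nfkbia in control grafts lie farthest right, at 1.57, 1.40 and 1.27.

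In naive tumours none of the 10 genes passed the test between the 2 grafts. The log2 differences, Sox2Hi minus control, ran from -0.10 (Relb, SE 0.216, 95% interval from -0.52 to 0.32) to 0.35 (Rela, SE 0.208, 95% interval from -0.06 to 0.76). For Icam1 the difference was 0.33 (SE 0.170, adjusted p = 0.245, 95% interval from 0.00 to 0.67), and for Tnfaip3 0.24 (SE 0.153, adjusted p = 0.361, 95% interval from -0.06 to 0.55). The edgeR test called 0 of 10 at an adjusted p of 0.05 and 0 at an unadjusted p under 0.05, against 14% of all genes called in either direction. DESeq2 called 0 (1 at an unadjusted p under 0.05), against 5.84% of all genes called higher, and limma-voom called 3, against 12.6%. The 3 were Rela, Tnfaip3 and Icam1. Only Rela had all Sox2Hi libraries above all control ones, 1 of 10 against 10.7% of genes. Title numbers were taken to pair the naive libraries because of correlations in these same data, and the labels state no pairing. With the number as a block in a fit of the 6 naive libraries Icam1 was called (log2 difference 0.396, adjusted p = 0.046), 1 of 10 against 8.3% of all genes called higher. The intervals leave room for differences of up to 0.76 on the log2 scale. Over all genes the split of calls was 237 higher to 1339 lower, and 492 to 62 under the all-gene scaling, where 1 of the 10, Icam1, was called higher.

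In treated tumours Tnfaip3 was lower in Sox2Hi than in control grafts, and no other member passed the test. It had a log2 difference of -0.64 (1.56-fold lower, SE 0.188, adjusted p = 0.0364), 1 of 10 against 5.87% of all genes called lower. Of the 1520 tested genes of at least 100 CPM, a set that holds Tnfaip3, 305 were called lower. The call was lost when any of the 4 treated libraries was left out, with values from -0.754 to -0.674 and adjusted p from 0.0663 to 0.144. It was also lost under the scaling on genes of at least 100 CPM (-0.250, adjusted p = 0.322). There Nfkb2 was called higher instead (0.669, adjusted p = 0.0234), against 32.3% of all genes. The Tnfaip3 call was lost as well with library totals, limma-voom, no filter, genes of at least 20 CPM or the groups compared alone. Under the expressed-gene scaling Nfkbia had a difference of -0.68 (SE 0.243, adjusted p = 0.070). For Nfkbiz it was -0.46 (SE 0.263, adjusted p = 0.236) and for Icam1 -0.35 (SE 0.207, adjusted p = 0.248). These 4 genes had both Sox2Hi treated libraries below both control treated ones, 4 of 10 against 26.3% of all genes. For Nfkb2 both Sox2Hi libraries were higher (log2 difference 0.29, SE 0.193, adjusted p = 0.315). The differences of Nfkbie (-0.27), Nfkb1 (-0.23), Rela (-0.05), Bcl3 (-0.02) and Relb (0.04) were below their SE or close to it, and their groups overlapped. The median over the 10 was -0.25, beside 0.04 over all genes tested and -0.38 over those of at least 100 CPM. The split of calls over all genes was 1691 higher to 662 lower, 1240 to 2836 under the all-gene scaling and 3644 to 129 with factors from genes of at least 100 CPM.

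The difference between the 2 treatment responses was tested directly as an interaction, Sox2Hi minus control. Tnfaip3 was the only member whose response was called smaller in Sox2Hi grafts, by 0.89 on the log2 scale (value -0.89, SE 0.243, adjusted p = 0.0247), 1 of 10 against 2.84% of all genes called lower. Of the 1520 tested genes of at least 100 CPM, a set that holds Tnfaip3, 122 were called lower. The values for Nfkbia (-0.78, SE 0.312, adjusted p = 0.109) and Icam1 (-0.69, SE 0.268, adjusted p = 0.101) pointed the same way without passing. For the other 7 genes the value lay between -0.46 (Nfkbiz) and 0.14 (Nfkb2), none of them past its threshold. The response of Bcl3 differed by -0.02 (SE 0.433, 95% interval from -0.87 to 0.83), which the scarce counts leave wide. The call of Tnfaip3 was lost without control naive replicate 1 (adjusted p = 0.0577), Sox2Hi naive replicate 1 (0.062), Sox2Hi naive replicate 2 (0.0675) or Sox2Hi treated replicate 1 (0.0722). It was lost, too, with library totals alone (-0.714, adjusted p = 0.0605). Without Sox2Hi treated replicate 2, Nfkbia (-1.203, adjusted p = 0.0401) and Nfkb1 (-0.841, adjusted p = 0.05 after rounding) were called as well. Icam1 was called without control naive replicate 2 (-0.977), and Rela without control treated replicate 2 (-0.982).

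The interaction depended on how libraries were put on one scale. Over all genes it was called higher for 1908 and lower for 320, against 3343 and 4806 under the all-gene scaling and 2873 and 35 with factors from genes of at least 100 CPM. Under the all-gene scaling 7 of the 10 genes were called lower, with a median of -1.24, against 16.2% of the 29648 genes tested. The 3 not called were Nfkb2, Relb and Bcl3. Under the scaling on genes of at least 100 CPM the edgeR test called 0 of 10 (1 at an unadjusted p under 0.05, and that one higher), with a median of 0.00 and Tnfaip3 at -0.455 (adjusted p = 0.206), against 0.31% of all genes called lower. Under the expressed-gene scaling the median was -0.42, beside -0.37 over the tested genes of at least 100 CPM.

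**Figure D3:**
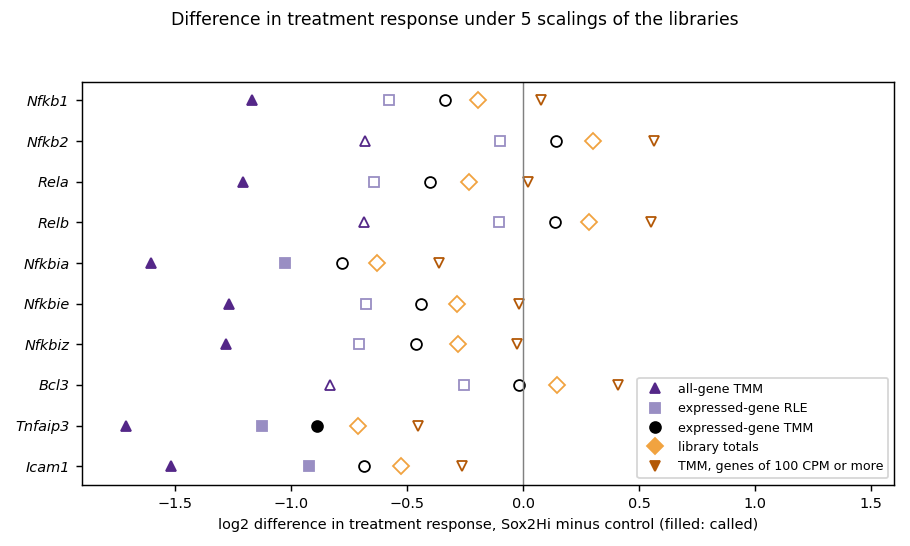
Difference in treatment response, Sox2Hi minus control, on the log2 scale (x axis) for each gene under 5 ways of scaling the libraries. Filled symbols passed an adjusted p of 0.05. The values shift together from left to right, from -1.71 to -0.46 for Tnfaip3.

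A ratio within a library needs no scaling, so the inhibitors and Icam1 were also set against the 4 subunit genes as a sum. This measure was chosen after the values were seen. In control grafts, naive libraries held 1.57, 1.46 and 1.40 reads of Tnfaip3 per subunit read, and treated libraries 3.45 and 3.40. In Sox2Hi grafts, naive libraries held 1.72, 1.74 and 1.36, and treated libraries 2.88 and 2.01. Treated ratios lay above naive ones in both grafts, and both Sox2Hi treated ratios lay below both control treated ones. Nfkbia gave ratios of 15.4, 11.9 and 12.7 (naive) and 23.04 and 26.7 (treated) in control grafts, and of 15.96, 11.95 and 11.18 (naive) and 17 and 16.7 (treated) in Sox2Hi grafts. The Sox2Hi treated ratios of Nfkbia were just above the highest naive one, and well below the control treated ones. Icam1 gave ratios of 0.813, 0.881 and 0.753 (naive) and 1.77 and 1.61 (treated) in control grafts, and of 0.945, 1.06 and 0.847 (naive) and 1.565 and 1.34 (treated) in Sox2Hi grafts. Here too the Sox2Hi treated ratios lay between the naive and the control treated ones. The log2 differences of the ratio in control grafts were 1.22 for Tnfaip3, 0.91 for Nfkbia and 1.05 for Icam1, each with an exact two-sided permutation p of 0.1, the smallest that 3 against 2 libraries can give. In Sox2Hi grafts they were 0.59 (exact p = 0.1), 0.39 (exact p = 0.2) and 0.61 (exact p = 0.1). Between treated grafts they were -0.51, -0.56 and -0.22, each at an exact p of 0.333, the smallest that 2 against 2 can give. Groups of this size cannot reach 0.05 in any of these tests, with or without adjustment. Nfkbie gave 0.75 in control and 0.56 in Sox2Hi grafts (exact p = 0.1 for both) and -0.14 between treated grafts, which overlapped (exact p = 0.667). Bcl3 gave 0.57 in control (exact p = 0.1) and a larger 0.87 in Sox2Hi grafts (exact p = 0.2), and 0.12 between treated grafts, which overlapped (exact p = 1). Nfkbiz ratios overlapped between all groups compared. Most subunit reads come from Nfkb1, so the ratio mainly compares a gene with Nfkb1.

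**Figure D4:**
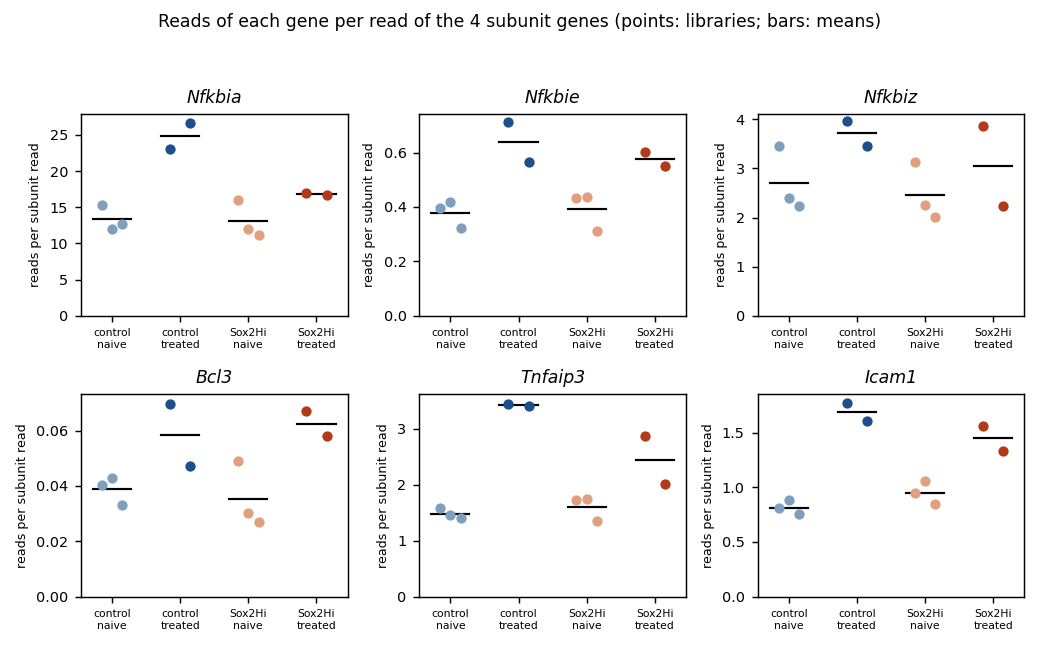
Reads of each inhibitor gene and of Icam1 per read of the 4 subunit genes together (y axis, from 0), by group (x axis). Points are libraries and bars are group means. For Tnfaip3 the control treated libraries stand at 3.45 and 3.40, and the Sox2Hi treated ones at 2.88 and 2.01.

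The rest of the pathway was described with 79 other genes in 6 lists by role, of which 73 were tested. In control grafts 50 of the 73 rose with treatment and 2 fell, against 24.1% and 33.1% of all genes. In Sox2Hi grafts 23 rose and 0 fell by the edgeR test, against 15% and 6.57% of all genes (0 lower at an unadjusted p under 0.05, 0 by DESeq2 and 0 by limma-voom). The median log2 fold change was 1.04 in control and 0.48 in Sox2Hi grafts. With factors from genes of at least 100 CPM, 32 of the 73 rose and 7 fell in control grafts, against 10.3% and 58.4% of all genes, and 17 rose in Sox2Hi grafts, against 9.65%. With the all-gene factors 66 of 79 rose in control grafts, against 18.7%, and 8 in Sox2Hi grafts, against 1.79%. Of the 7 receptors tested, 5 rose in control and 2 in Sox2Hi grafts. The largest rises were those of Tlr2, a receptor for bacterial lipoproteins, in control (1.82, SE 0.220) and of Cd40, the receptor the agonist binds, in Sox2Hi grafts (1.70, SE 0.238). Cd40 stood at 12.2, 16.0 and 11.8 CPM in control naive, 45.6 and 41.8 CPM in control treated, 10.7, 10.2 and 7.69 CPM in Sox2Hi naive and 23.1 and 39.0 CPM in Sox2Hi treated libraries. Its RNA was thus higher in treated libraries of both grafts. Il1r1, a receptor for interleukin 1, fell in control grafts (-0.88, SE 0.270).

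Of the 14 adaptors tested, 9 rose in control and 5 in Sox2Hi grafts, with Traf1 the largest in both (1.80, SE 0.189, and 1.42, SE 0.189). Of the 9 kinases tested, 7 rose in control grafts, led by Map3k8 (1.69, SE 0.190), and 4 in Sox2Hi grafts, led by Ikbke (1.09, SE 0.212). Among the 15 ubiquitin and feedback genes, 9 rose in control and 4 in Sox2Hi grafts. The largest changes were those of Tnip1 in control (2.07, SE 0.250) and of Tnip3 in Sox2Hi grafts (1.37, SE 0.254), whose products bind the Tnfaip3 enzyme. Of the 25 targets, 18 rose in control and 7 in Sox2Hi grafts. The chemokine gene Ccl5 led in both, by 3.04 and 2.97 (adjusted p = 0.000435 and 0.00238). Ccl5 is also a transcript of T and NK cells, whose markers rose as well, 4 of the 6 tested in control (median 1.67) and 2 of 6 in Sox2Hi grafts (median 1.36). Nkg7, the T and NK marker with the largest rise, rose by 3.00 and 2.52 (adjusted p = 0.0012 and 0.0118). In treated libraries Ccl5 stood at 226 and 432 CPM (control) and 152 and 454 CPM (Sox2Hi), and Nkg7 at 60.98 and 233 CPM and at 129 and 78.2 CPM. The part of these cells in the rise of Ccl5 was not tested. Of the 3 other subunit and inhibitor genes tested, 2 rose in control and 1 in Sox2Hi grafts. Nfkbib, which encodes IkappaB-beta, rose in both (1.68, SE 0.214, and 1.06, SE 0.213), and the subunit gene Rel rose in control grafts (0.98, SE 0.221).

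Between naive grafts 0 of the 73 were higher by the edgeR test in Sox2Hi (5 at an unadjusted p under 0.05), against 2.1% of all genes. DESeq2 called 2 higher, against 5.84%, and limma-voom 11, against 12.6%. Traf5 and Tnfrsf11a were lower (-0.76, SE 0.179, and -0.68, SE 0.194), 2 of 73 against 11.9%. With the naive libraries fitted alone and blocked by title number, 8 of the 73 were called higher, against 8.3% of all genes, and 2 lower, against 13.7%. The 8 were the adaptors Myd88, Traf2, Traf6 and Tradd, the kinase genes Chuk and Ikbkg and the targets Cxcl1 and Ptgs2, by 0.40 to 0.91 on the log2 scale. The 2 were Traf5 and Ccl4. Between treated grafts 11 were lower in Sox2Hi and 1 was higher, against 5.87% and 15% of all genes. The lower ones included 6 targets, with the chemokine gene Ccl4 the lowest (-1.58, SE 0.411), the kinase genes Map3k8 (-0.74, SE 0.211) and Tbk1, the adaptor Irak2 (-0.62, SE 0.194) and the feedback genes Tax1bp1 (-0.77, SE 0.242) and Rnf11. In the interaction 5 responded less in Sox2Hi grafts and 1 responded more, against 2.84% and 16.9% of all genes. The 5 were 3 targets, 1 adaptor and 1 feedback gene. Of the targets the cytokine gene Tnf changed most (-1.76, SE 0.407), and the feedback gene was Tnip1 (-1.16, SE 0.357). The gene that responded more was Traf5, an adaptor of tumour necrosis factor family receptors. It stood at 41.8, 57.6 and 36.6 CPM in control naive, 24.2 and 18.8 CPM in control treated, 27.4, 27.3 and 25.3 CPM in Sox2Hi naive and 41.7 and 41.1 CPM in Sox2Hi treated libraries. It fell in control grafts (-1.07, SE 0.206) and rose in Sox2Hi grafts (0.63, SE 0.197), for an interaction of 1.71 (SE 0.284, adjusted p = 0.00173). Under the scaling on genes of at least 100 CPM, 1 of the 73 genes responded less in Sox2Hi grafts and 3 responded more, against 0.31% and 25.5% of all genes. The counts in each direction thus moved with the scaling, and the shares over all genes moved too. Across settings, the number that responded less was 29 with DESeq2 (against 15.2% of all genes), 11 with limma-voom (5.82%) and 3 with library totals (1.21%), and 54 of 79 under the all-gene scaling (16.2%). The number lower between treated grafts was 26 with DESeq2 (against 16.2%), 3 with limma-voom (3.89%) and 4 with library totals (1.7%). With factors from genes of at least 100 CPM, 4 were lower and 3 higher, against 1.14% and 32.3% of all genes. The number lower was 38 of 79 under the all-gene scaling (9.57%).

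**Figure D5:**
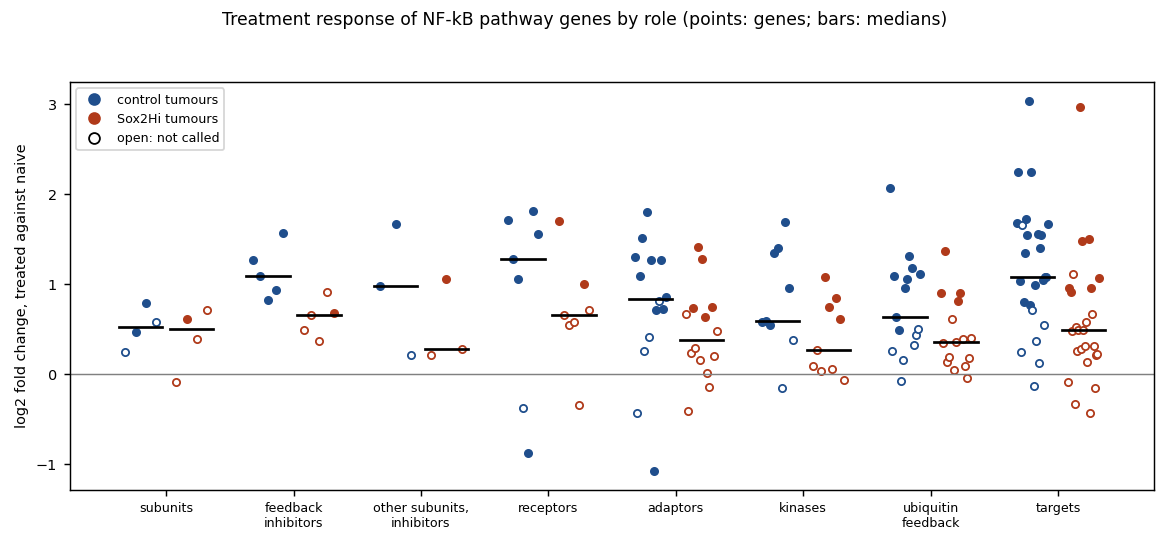
Log2 fold change between treated and naive libraries (y axis) for the subunit and inhibitor genes and for 6 lists of other pathway genes, by role (x axis), in control and Sox2Hi grafts. Each point is a gene, filled where it passed an adjusted p of 0.05, and bars are medians. Ccl5 is the highest target in both grafts, at 3.04 and 2.97, and Traf5 the lowest adaptor in control grafts, at -1.07.

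Across the 10 libraries, which share the 4 groups and their depth and background differences, the 10 genes mostly varied together. The correlation of log2(CPM + 1) between 2 of them had a median of 0.812 over 45 pairs, with 37 pairs above 0.5. It was highest for Tnfaip3 and Icam1 (0.973) and lowest for Nfkb1 and Rela (0.071). Against the mean profile of the 10, Nfkbie had the highest correlation (0.988) and Nfkb1 the lowest (0.446). Among 7953 other genes whose mean reached 10 CPM, the 5 closest to that profile were Slc2a6 (0.993), Lpcat2 (0.992), Fermt3 (0.992), Tlr2 (0.991) and Mapkapk2 (0.991), of which Slc2a6 and Tlr2 are also in the pathway lists. The profile was highest in control treated libraries (0.610 and 0.479), then in Sox2Hi treated libraries (0.196 and 0.413), and lay between -0.54 and -0.05 in the 6 naive libraries. These correlations describe the libraries and carry no test, since the groups set much of them.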

How the data were processed

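The authors deposited a table of estimated counts per gene, in whole numbers, for 10 bulk RNA-seq libraries. Per the labels' protocols, RNA was prepared with a Zymo microprep kit and libraries with the NEBNext low input kit. The submitters' processing notes name kallisto 0.44.0 and the mm10 build. The annotation and strand setting are not given in the sources used here. Symbols for 55144 of 55385 identifiers and exon lengths came from GENCODE M21 (GRCm38). Entries that name no gene held 0.000992% to 0.00277% of counts and were left out.

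Genes whose mean reached 5 CPM were tested with edgeR 4.0.16 (R 4.3.3) by the quasi-likelihood test, with all 4 groups in one model, TMM factors and Benjamini-Hochberg adjustment over the 11274 genes. A call is an adjusted p under 0.05, and the common biological coefficient of variation was 0.212. Intervals are 1.96 SE either way, which is narrow for so few libraries. Every adjusted p in the text is from this fit unless another setting or tool is named. Where a scaling, filter, block or left-out library is named, it is from the same edgeR test refitted that way. Alternatives were other scalings and filters, DESeq2 1.42.0, limma 3.58.1 (voom), replicate blocks, a Ddx3y covariate and leaving out each library. The members and lists were chosen with earlier results of these data known. All 10 members are reported. Of each other list the text gives the counts called and the genes with the largest called changes, and further genes named there were chosen after their values were seen. The fit was tested on simulated data. Replicates differed beyond sampling noise (chi-square per degree of freedom at least 12.5). Deviations from the group means correlated between naive libraries with the same title number (0.273, 0.325 and 0.474). From this, and not from the labels, these numbers were taken to pair the naive libraries. They did not pair the treated ones (-0.095).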

Additional observations from a re-analysis of the deposited data

Results flagged for a closer look

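The difference between the treatment responses of the 2 grafts passed the test for Tnfaip3, with an interaction of -0.89 on the log2 scale (SE 0.243, adjusted p = 0.0247, edgeR). Tnfaip3 was higher in all 4 treated libraries than in any naive library of the same graft, by a fitted 1.57 in control and 0.69 in Sox2Hi grafts. Over the scalings, filters, tools and blocks tried, the value ran from -1.712 to -0.455, with adjusted p from 0.00104 to 0.206. The silent-gene background and the neutrophil marker sum also differed more between treated and naive libraries in control than in Sox2Hi grafts, and their part in this difference was not tested.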

How the results depend on the processing

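The number of the 10 genes called moved with the scaling and with the tool. The share of all genes called in the same direction, given in brackets, moved too. In control grafts, against 8 (24.1%), it was 3 with factors from genes of at least 100 CPM (10.3%), 4 with library totals (11.2%) and 4 among genes of at least 20 CPM (29%), where 6 members were tested. In Sox2Hi grafts, against 3 (15%), it was 0 with all-gene scaling (1.79%), 1 with RLE factors (9.27%), 0 with library totals (5.94%), 6 with limma-voom (22%) and 5 with the replicate block by description number (18.1%). Between naive grafts, against 0 (2.1% higher), it was 1 with all-gene scaling (1.66%), 3 with limma-voom (12.6%) and 1 with the replicate block by title number in the naive libraries alone (8.3%). Between treated grafts, against 1 lower in Sox2Hi (5.87%), it was 4 with all-gene scaling (9.57%), 2 each with RLE factors (11.6%), DESeq2 (16.2%) and TMM factors using library sizes from all genes (chosen after seeing the data, 10.1%), and 3 with the replicate block by title number (9.83%). It was 0 with library totals (1.7%), limma-voom (3.89%), no filter (1.05%), genes of at least 20 CPM (2.42%) or the groups alone (1.54%). With factors from genes of at least 100 CPM 1 gene was called, Nfkb2, but higher in Sox2Hi (0.669, adjusted p = 0.0234 by edgeR's quasi-likelihood test, against 32.3% of all genes called higher). For the interaction, against 1 (2.84%), it was 7 with all-gene scaling (16.2%), 3 each with RLE factors (10.9%), DESeq2 (15.2%) and the added TMM factors (9.11%), and 2 each with limma-voom (5.82%) and the replicate block by title number (5.39%). It was 0 with factors from genes of at least 100 CPM (0.31%), library totals (1.21%) or genes of at least 20 CPM (0.775%). Leaving out each replicate gave counts from 0 to 4 in Sox2Hi grafts (1.61% to 11.7% of all genes), of 0 between treated grafts (0.39% to 4.85%) and from 0 to 3 for the interaction (0.603% to 7.55%). Where a graft then kept 1 treated library, it was assumed to vary like the other groups. The cause was not tested.

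Of 50 log2 values, 19 changed sign in at least 1 alternative, in 82 cases, and 2 of these cases concerned a called value, that of Nfkb2 in control grafts. In control grafts, factors from genes of at least 100 CPM gave -0.302 for Nfkb1 and -0.077 for Nfkb2, and library totals -0.258 and -0.036. Between naive grafts, all-gene scaling gave 0.275 for Relb and 0.37 for Bcl3, and library totals 0.028 and 0.121. Bcl3 was at 0.069 with RLE factors, 0.08 with the added TMM factors, 0.068 with DESeq2, 0.005 with limma-voom, 0.042 with the groups alone and 0.023 with the block in the naive libraries alone. Nfkbiz was at -0.035 with factors from genes of at least 100 CPM, -0.222 with limma-voom, -0.001 and -0.003 with the blocks by title and description number and -0.003 with the Ddx3y covariate, and Nfkbia was at -0.002 with limma-voom.

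Between treated grafts, all-gene scaling gave -0.161 for Nfkb2 and -0.409 for Relb. Relb was at -0.129 with RLE factors, -0.077 with the added TMM factors and -0.129 with DESeq2. Factors from genes of at least 100 CPM gave 0.148 for Nfkb1, 0.333 for Rela, 0.108 for Nfkbie, 0.358 for Bcl3 and 0.032 for Icam1. Library totals gave 0.046 for Nfkb1, 0.25 for Rela, 0.015 for Nfkbie and 0.267 for Bcl3. Rela and Bcl3 were at 0.027 and 0.002 with limma-voom and at 0.083 and 0.029 with the block by description number. For the interaction, Nfkb2 and Relb were at -0.682 and -0.685 with all-gene scaling, -0.098 and -0.105 with RLE factors, -0.053 and -0.062 with the added TMM factors and -0.101 and -0.107 with DESeq2. Factors from genes of at least 100 CPM gave 0.077 for Nfkb1, 0.021 for Rela and 0.407 for Bcl3. Bcl3 was at 0.145 with library totals, 0.024 and 0.04 with the blocks by title and description number and 0.039 with the Ddx3y covariate.

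Leaving out each replicate moved Nfkb1 from -0.461 to 0.17 in Sox2Hi grafts. Between naive grafts it moved Relb from -0.248 to 0.105, Nfkbia from -0.085 to 0.221, Nfkbiz from -0.22 to 0.158 and Bcl3 from -0.331 to 0.273. Between treated grafts it moved Nfkb1 from -0.647 to 0.028, Rela from -0.549 to 0.35, Relb from -0.383 to 0.294 and Bcl3 from -0.387 to 0.158. For the interaction it moved Nfkb2 from -0.204 to 0.287, Relb from -0.368 to 0.395 and Bcl3 from -0.468 to 0.308.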
